A study of Mus musculus with 4 samples.

Results

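The MHC class II pathway is described here through 10 of the 53715 genes in the deposited count table: the chains H2-Aa, H2-Ab1 and H2-Eb1, the invariant chain gene Cd74, the peptide-exchange genes H2-DMa, H2-DMb1 and H2-DMb2, their modulators H2-Oa and H2-Ob, and the coactivator gene Ciita. They were measured by RNA sequencing in invariant natural killer T (iNKT) cells of the mouse thymus, sorted live on staining for TCRβ and with a CD1d tetramer. The mutant mice were Mettl3 fl/fl CD4-cre (2 libraries, here Mettl3 knockout), in which Cre under Cd4 control acts from the stage at which thymocytes switch that gene on, and the controls were WT mice (2 libraries). Strain (C57BL/6) and age (6 to 8 weeks) were labelled the same in both groups, and METTL3 is the enzyme that writes the m6A mark on mRNA. The genes were found by symbol. They were chosen by pathway membership and on their knockout and WT levels as seen in earlier results of this comparison, so their differences between the genotypes are given below as a description and not as a test.

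MHC class II molecules are pairs of an α and a β chain that show peptides from the endosome to CD4+ T cells. The invariant chain escorts new pairs and fills their groove, H2-DM swaps its last fragment for a peptide, and H2-O restrains H2-DM. The chain genes, Cd74 and the H2-DM genes are switched on together by the coactivator CIITA. It binds no DNA itself but docks on RFX, CREB and NF-Y at the X and Y boxes of their promoters. Dendritic cells, B cells, macrophages and thymic epithelium carry class II, whereas mouse T cells, iNKT cells among them, are generally regarded as making little or none.

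The counts over genes totalled 25402792 and 24374587 in knockout replicates 1 and 2, and 28316016 and 25931610 in WT replicates 1 and 2. Mettl3 itself was at 78.1 and 91.4 CPM in the knockout libraries and at 92.2 and 123.6 CPM in the WT libraries (edgeR adjusted p = 0.357). Reads were counted over the whole gene and not by exon, so loss of the deleted part was not tested. Of 9 genes of T and iNKT cell identity, all were counted in every library, at a summed 4899 and 4759 CPM in the knockout and 5454 and 5763 CPM in WT. Levels are CPM, the counts of a gene relative to its library's TMM-scaled total, and folds and standard errors (SE) come from edgeR's quasi-likelihood fit over 14185 genes. The labels do not say whether libraries came from separate mice, so a p-value reflects how far these libraries scatter, and that scatter may be technical only. In bulk RNA, more cells of a type and more RNA per cell cannot be told apart.

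Along GRCm38 chromosome 17 (GENCODE M21), 8 of the 10 genes lie in the class II region, in the order H2-Oa (34092340 to 34095234), H2-DMa (34119541 to 34139101), H2-DMb2 (34143307 to 34151555), H2-DMb1 (34153072 to 34160230), H2-Ob (34238903 to 34254414), H2-Ab1 (34257689 to 34269419), H2-Aa (34282744 to 34287823) and H2-Eb1 (34305867 to 34316674). Ciita (ENSMUSG00000022504.10) lies on chromosome 16, 10480059 to 10528418, and Cd74 lies on another chromosome, given with its values. H2-Aa is on the minus strand and the other 9 are on the plus strand. The version of the gene ID in the table matched that annotation for Ciita only, so the gene models counted for the other 9 may differ from these spans.

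Promoter sequence shows what these genes share outside their counts. RefSeq windows (GRCm38.p6, from 250 bases before to 50 after a gene's start) were at hand for 7 of the 10 genes and not for H2-Ab1, Cd74 and Ciita. They were searched on both strands for an X box core of 11 letters, with positions 3, 7 and 8 free and the rest as in the capitals of the first 4 stretches printed here, and for ATTGG, the Y box read as an inverted CCAAT. The X core stood in 3 of the 7 genes and in 1.04% of all 27025 genes, and ATTGG stood in all 7 and in 41.1% of all genes, the window of H2-DMa at its upstream start excepted. Both in order, with starts 15 to 40 bases apart, stood in 5 genes of the 27025 (0.0185%): H2-DMb1, H2-Eb1, H2-Ob, their neighbour H2-Eb2 and the predicted gene Gm39646. The letters were chosen with the known class II module in mind, and a match is a description of the sequence, not evidence of binding. The stretches below run 45 bases before ATTGG to 10 bases after it, 5′ to 3′ on the gene's strand, with the X core and ATTGG in capitals.
H2-Eb1, chr17:34305763-34305822, plus strand: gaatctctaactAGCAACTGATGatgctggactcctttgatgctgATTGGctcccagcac
H2-Eb2, chr17:34325530-34325589, plus strand: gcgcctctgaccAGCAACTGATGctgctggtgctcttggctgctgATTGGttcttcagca
H2-DMb1, chr17:34153085-34153144, plus strand: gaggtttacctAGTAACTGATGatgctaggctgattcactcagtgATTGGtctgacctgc
H2-Ob, chr17:34238803-34238862, plus strand: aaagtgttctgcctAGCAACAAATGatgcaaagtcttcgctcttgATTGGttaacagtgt
H2-DMb2, chr17:34145114-34145173, plus strand: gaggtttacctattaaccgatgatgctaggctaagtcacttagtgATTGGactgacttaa
H2-Aa, chr17:34287857-34287916, minus strand: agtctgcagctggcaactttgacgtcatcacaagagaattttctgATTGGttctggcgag
H2-Oa, chr17:34092291-34092350, plus strand: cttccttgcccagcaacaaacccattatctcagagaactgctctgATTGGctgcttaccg
In the first 4, the X core began 33 bases (H2-Eb1 and H2-Eb2), 34 bases (H2-DMb1) or 31 bases (H2-Ob) before ATTGG. H2-DMb2, H2-Aa and H2-Oa held ATTGG at 90, 48 and 43 bases before the start, without these exact X letters ahead of it. H2-DMa is set apart: neither of its listed windows held the X core, and its coding transcripts in GENCODE M21 also start further downstream, where no window was at hand.

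All 10 genes were higher in both knockout libraries than in both WT libraries, a separation that 25.4% of all genes tested showed upward and 24.9% downward. In the fit over all genes, 6 of the 10 were called higher (Benjamini-Hochberg adjusted p under 0.05) and 0 lower, where 1.09% of genes tested were called higher, 1.51% lower and 2.59% in either direction. Their median log2 fold change was 3.12, beside 0.02 over all genes tested. Since the genes were assembled with this contrast known, nothing is read from those counts. The size of the difference was uneven by role: 12.7-fold to 14.9-fold for the chains and Cd74, 7.45-fold and 10.2-fold for the H2-DM β genes, 4.85-fold for Ciita, and 1.47-fold to 2.71-fold for H2-DMa and the H2-O genes.

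**Figure D1:**
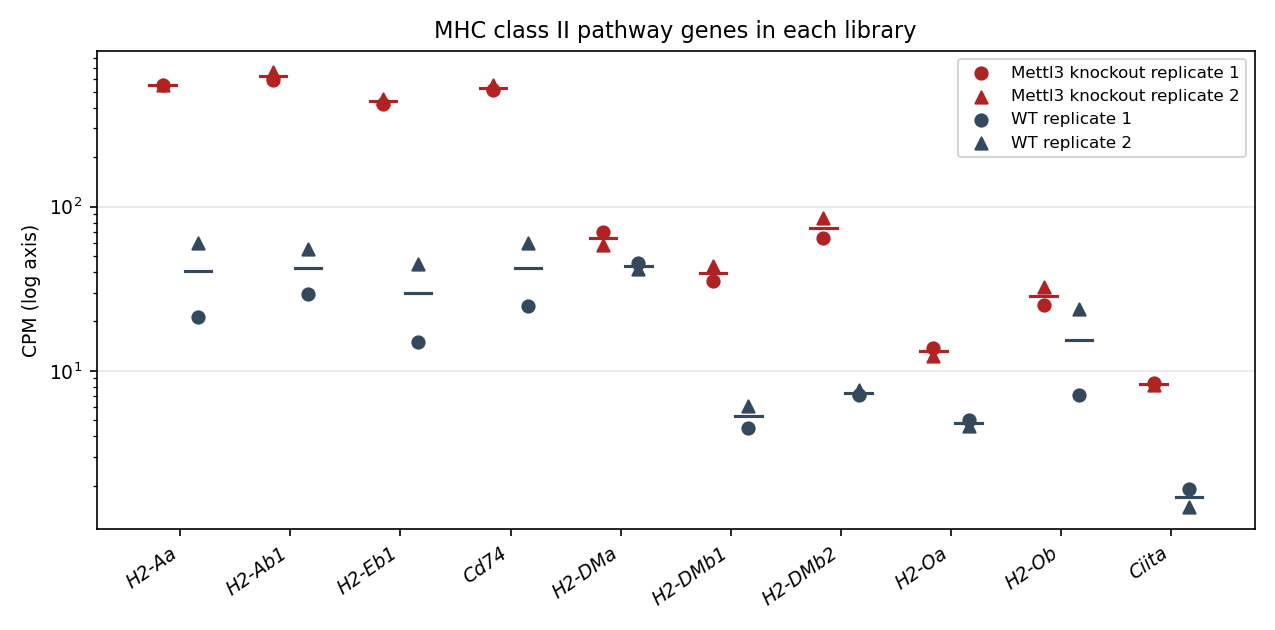
CPM (log axis) of the 10 class II pathway genes in each library, Mettl3 knockout in red and WT in dark blue, with replicates 1 and 2 as circles and triangles and a bar at the mean of each genotype. H2-Aa, H2-Ab1, H2-Eb1 and Cd74 sit between 421 and 656 CPM in the knockout and between 15.1 and 60.0 CPM in WT, while H2-DMa lies close together in all 4 libraries.

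Among the chains, H2-Ab1 (ENSMUSG00000073421.5), the β chain of H2-A, was at 591 and 656 CPM in the knockout libraries and at 29.3 and 55.1 CPM in the WT libraries. Its log2 fold change was 3.90 (SE 0.24), a 14.9-fold difference. H2-Aa (ENSMUSG00000036594.14), the α chain that pairs with it, was at 552 and 549 CPM in the knockout libraries and at 21.2 and 59.9 CPM in the WT libraries. The knockout libraries were thus nearly equal, the WT libraries were not, and the groups lay far apart, with a log2 fold change of 3.78 (SE 0.35). H2-Eb1 (ENSMUSG00000060586.10), the β chain of H2-E, was at 421 and 453 CPM in the knockout libraries and at 15.1 and 44.8 CPM in the WT libraries, a log2 fold change of 3.89 (SE 0.35).

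C57BL/6 mice do not transcribe the α chain gene of H2-E, so the H2-Eb1 product has no partner there. The α chain gene, listed as the polymorphic pseudogene H2-Ea-ps, had 0 counts in all 4 libraries, which allows up to 0.117 and 0.120 CPM in the knockout and 0.107 and 0.119 CPM in WT. H2-Eb2, a second β chain gene beside H2-Eb1, was low, at 1.94 and 2.09 CPM in the knockout libraries and 0 and 0.916 CPM in the WT libraries (edgeR adjusted p = 0.314).

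Cd74 (ENSMUSG00000024610.14; chromosome 18, 60803848 to 60812652), which encodes the invariant chain, was at 515 and 548 CPM in the knockout libraries and at 24.8 and 60.0 CPM in the WT libraries. That is a log2 fold change of 3.67 (SE 0.31), or 12.7-fold, close to the value of each chain. Together these 4 genes held 0.211% and 0.226% of all counts in the knockout libraries and 0.00897% and 0.0213% in the WT libraries. The lowest knockout library exceeded the highest WT library 10.7-fold for H2-Ab1, 9.16-fold for H2-Aa, 9.39-fold for H2-Eb1 and 8.59-fold for Cd74.

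H2-DM is built from an α chain, from H2-DMa, and a β chain, from H2-DMb1 or H2-DMb2, and its genes split. H2-DMb2 (ENSMUSG00000037548.14) was at 64.4 and 84.7 CPM in the knockout libraries and at 7.08 and 7.60 CPM in the WT libraries, a log2 fold change of 3.35 (SE 0.28). H2-DMb1 (ENSMUSG00000079547.3) was at 35.1 and 43.7 CPM in the knockout libraries and at 4.52 and 6.13 CPM in the WT libraries, a log2 fold change of 2.90 (SE 0.32). H2-DMa (ENSMUSG00000037649.9), by contrast, was at 70.1 and 58.6 CPM in the knockout libraries and at 45.3 and 41.9 CPM in the WT libraries. The groups did not overlap, but the log2 fold change was 0.56 (SE 0.19), and H2-DMa was not among the genes called.

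Per kilobase of merged exons, the level of H2-DMa was 0.352 and 0.228 times the summed level of H2-DMb1 and H2-DMb2 in the knockout libraries, and 1.95 and 1.52 times in the WT libraries. The transcripts H2-DMb1-201 and H2-DMb2-201 are 75.3% identical over their alignment, and 27.2% of the 50-base windows of H2-DMb1-201 also occur in H2-DMb2-201. How reads that fit both were counted is not given, so the values of these copies are uncertain. In GENCODE M21, H2-DMa shares 360 of its 3448 exon bases with Brd2 on the other strand, and reads there cannot be assigned by strand. Brd2 had 10326 and 9252 counts in the knockout libraries and 11472 and 11299 in the WT libraries. H2-DMa had 1803 and 1460, and 1274 and 1052. The part of Brd2 reads in the H2-DMa values was not tested.

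The H2-O genes were low in both genotypes. H2-Oa (ENSMUSG00000024334.8), the α chain, was at 13.9 and 12.4 CPM in the knockout libraries and at 5.05 and 4.62 CPM in the WT libraries, with replicates close together in each. Its log2 fold change was 1.44 (SE 0.38), and it was not called with edgeR or limma voom but was with DESeq2. It shares 321 of 1407 exon bases with the antisense gene BC051537, which had 65 and 149 counts in the knockout libraries and 10 and 0 in the WT libraries, against 357 and 309, and 142 and 116, for H2-Oa.
H2-Ob (ENSMUSG00000041538.15), the β chain, was at 25.2 and 32.2 CPM in the knockout libraries and at 7.08 and 23.6 CPM in the WT libraries. WT replicate 2 thus came within 1.07-fold of the lower knockout library, and the log2 fold change of 0.93 (SE 0.47) was not called.

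Ciita (ENSMUSG00000022504.10), which encodes the coactivator, had 217 and 204 counts in the knockout libraries and 54 and 37 counts in the WT libraries, or 8.43 and 8.18 CPM against 1.92 and 1.47 CPM. The groups lay apart, with a log2 fold change of 2.28 (SE 0.52) that was not called with edgeR, but was with DESeq2 and when only genes at 5 CPM or more in 2 libraries were tested. Its exons overlap those of Dexi, on the other strand, by 329 of 9535 bases. Dexi had 894 and 833 counts in the knockout libraries and 1246 and 915 in the WT libraries. H2-Ab1 exceeded Ciita per kilobase of merged exons 260-fold and 298-fold in the knockout libraries, and 56.7-fold and 139-fold in the WT libraries.

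Set in order of level per kilobase of merged exons, the knockout libraries ran Cd74 (mean 317 CPM per kb), H2-Ab1 (243), H2-Eb1 (225), H2-Aa (145), H2-DMb2 (42.7), H2-DMb1 (23.5), H2-DMa (18.7), H2-Oa (9.34), H2-Ob (5.33) and Ciita (0.871). Only the neighbours H2-Ab1 and H2-Eb1 had overlapping ranges there. In the WT libraries Cd74 (25.3 CPM per kb), H2-Ab1 (16.4), H2-Eb1 (15.4) and H2-DMa (12.6) each overlapped the next in order. The last of these overlapped H2-Aa (10.7), which lay apart from the genes below it. H2-DMb2 (4.2), H2-Oa (3.44), H2-DMb1 (3.17) and H2-Ob (2.86) followed, of which H2-Ob, the most spread, overlapped each of the other 3 and H2-Oa overlapped H2-DMb1, with Ciita last (0.178). By the length of each gene's main transcript instead, H2-Ab1 and H2-Aa led in the knockout, and the order there of chains and Cd74, then H2-DM, H2-O and Ciita held. In WT the blocks held by neither length: by main transcript H2-DMa (26.3 CPM per kb) stood above H2-Eb1 (25.6), H2-Ob (5.75) above H2-DMb2 (5.15) and H2-Oa (4.44) above H2-DMb1 (3.79). The ranges overlapped within each of these pairs. Per kilobase of merged exons, H2-Aa stood at 0.632 and 0.565 of the level of H2-Ab1 in the knockout libraries. In the WT libraries it stood at 0.488 and 0.735, so the ranges overlap. That ratio depends on the length used. By main transcript, H2-Aa was at 490 and 487 CPM per kb in the knockout libraries, against 488 and 541 for H2-Ab1. In the WT libraries H2-Aa was at 18.8 and 53.1 by that length, against 24.2 and 45.5 for H2-Ab1.

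The libraries of each genotype differed from each other in a pattern of their own. In the knockout, replicate 2 over replicate 1 lay between 0.836 for H2-DMa and 1.32 for H2-DMb2, and 0 of the 10 genes differed over 2-fold. In WT, replicate 2 exceeded replicate 1 by 3.34-fold for H2-Ob, 2.97-fold for H2-Eb1, 2.83-fold for H2-Aa, 2.42-fold for Cd74 and 1.88-fold for H2-Ab1. Ciita (0.767-fold), H2-Oa (0.914-fold), H2-DMa (0.924-fold), H2-DMb2 (1.07-fold) and H2-DMb1 (1.36-fold) did not follow them. Of 10081 tested genes with a mean of at least 100 counts, 2.95% were over 2-fold higher in WT replicate 2 than in WT replicate 1, and the median difference in either direction was 1.182-fold. Between the knockout libraries, 5.1% of those genes differed over 2-fold in either direction, and the median difference was 1.156-fold.

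**Figure D2:**
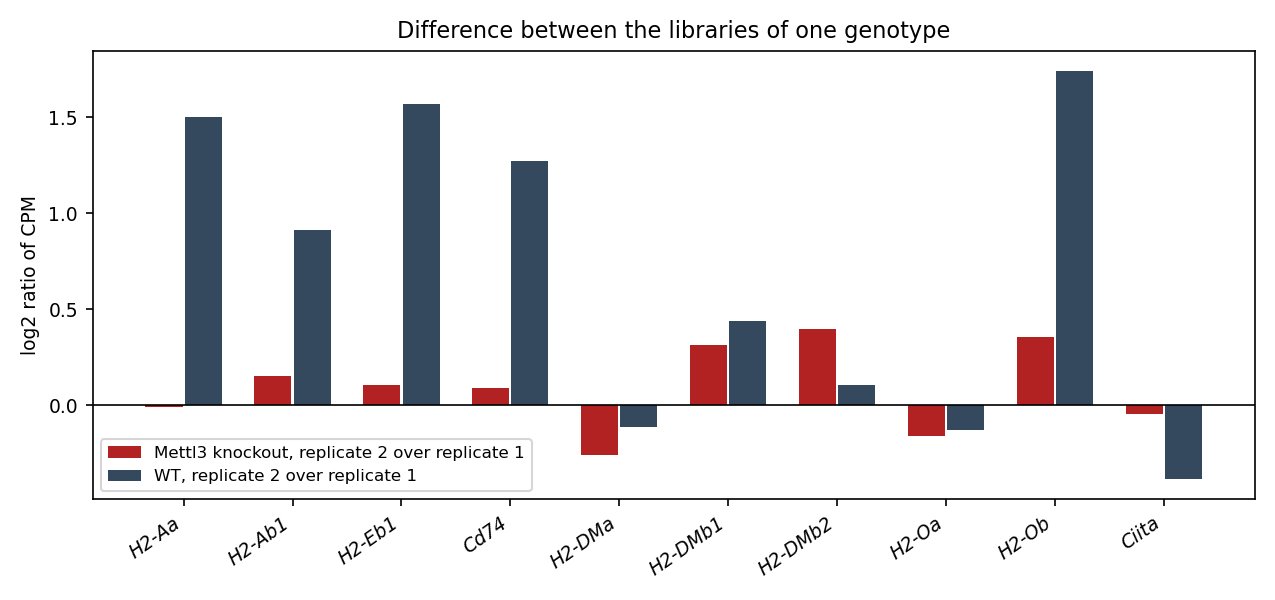
Log2 ratio of CPM in replicate 2 over replicate 1, in Mettl3 knockout (red) and WT (dark blue), for each class II pathway gene. The chains, Cd74 and H2-Ob stand at 0.91 to 1.74 in WT, whereas every knockout bar lies between -0.26 and 0.40.

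That spread sets how firmly the folds can be given. Without WT replicate 2 the log2 fold changes were 4.70 for H2-Aa, 4.41 for H2-Ab1, 4.85 for H2-Eb1, 4.42 for Cd74 and 2.01 for H2-Ob. Without WT replicate 1 they were 3.19, 3.49, 3.28 and 3.14 for the chains and Cd74 in that order, and 0.27 for H2-Ob. All 10 values stayed above 0 with any 1 library left out. H2-Ab1 and H2-DMb2 were called each time. H2-Aa, H2-Eb1 and Cd74 were not called without knockout replicate 1 or 2, where 3 and 2 of the 10 genes were called, and H2-DMb1 was called only without knockout replicate 1. With 2 libraries against 2, an exact permutation test of a single gene cannot go below a two-sided p of 0.333.

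**Figure D3:**
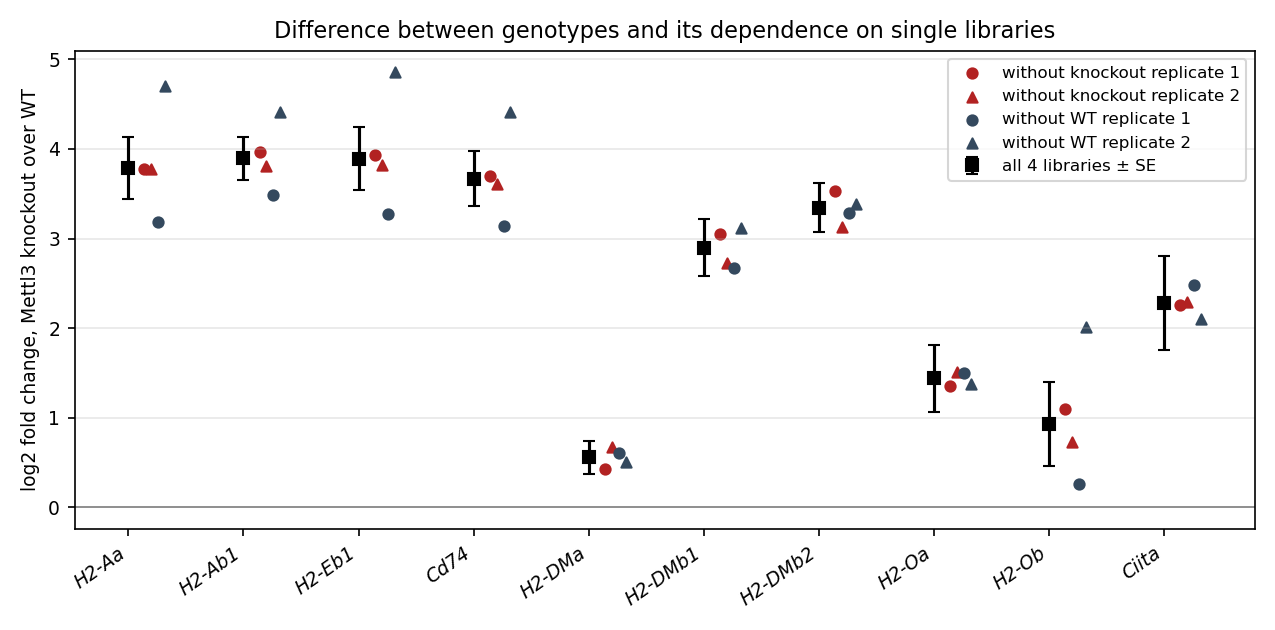
Log2 fold change of Mettl3 knockout over WT for each class II pathway gene, as black squares with bars of 1 SE for all 4 libraries, and as colored points with 1 library left out. Leaving out WT replicate 2 (dark blue triangles) raises the values of the chains, Cd74 and H2-Ob most, to between 2.01 and 4.85, and H2-DMa stays between 0.42 and 0.68.

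Other genes of the pathway, class I genes and markers of cell types were read from 11 lists, none holding the 10. Of their 84 tested genes 10 rose and 3 fell, where 1.09% and 1.51% of all tested genes did. Of the 10 that rose, 7 are on the dendritic cell and macrophage lists. Those lists gave 8 (conventional dendritic), 4 (plasmacytoid dendritic) and 9 (macrophage and monocyte) of the tested genes. The lists were chosen with earlier results of these data known, so nothing is read from these shares. The proteins on which CIITA docks showed no call: of 7 tested genes for RFX, NF-Y and CREB1, 0 rose and 0 fell with edgeR, with DESeq2 or with limma voom, and 2 had an unadjusted edgeR p under 0.05. Nfya, an NF-Y subunit, was at 17.1 and 15.9 CPM in the knockout libraries and 6.44 and 10.1 CPM in the WT libraries, 1.01 apart on the log2 scale (edgeR adjusted p = 0.169). Creb1 was at 75.0 and 75.3 CPM in the knockout libraries and 96.6 and 107.6 CPM in the WT libraries (edgeR adjusted p = 0.158). Their median log2 fold change was -0.18. The remaining ones, Rfx5, Rfxank, Rfxap, Nfyb and Nfyc, had log2 fold changes between -0.24 and 0.04, and the sign for Rfx5, Rfxank, Rfxap and Nfyb turned with 1 library left out, that for Nfyb also with total-count scaling.

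Of 9 tested genes for antigen processing and class II turnover, 1 rose and 0 fell, and their median log2 fold change was 0.23. The gene that rose was Cd83, whose product keeps class II at the cell surface. It was at 26.2 CPM in both knockout libraries and at 4.37 and 8.00 CPM in the WT libraries, a 4.29-fold difference (edgeR adjusted p = 0.0311; 0.0812 to 0.153 with 1 library left out, whichever it was). The lysosomal protease gene Ctsl was at 25.3 and 27.4 CPM in the knockout libraries and at 13.8 and 13.0 CPM in the WT libraries, which passed with DESeq2 but not with edgeR (adjusted p = 0.101). The other 7 were called by neither.

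Genes known to act on or upstream of Ciita moved in both directions: of 12 tested, 2 rose and 1 fell, with a median log2 fold change of -0.21. Of these 12, 7 had an unadjusted edgeR p under 0.05. Ifngr1, the ligand-binding chain of the interferon-γ receptor, fell to 404 and 396 CPM in the knockout libraries, against 1069 and 1683 CPM in the WT libraries, 3.44-fold (edgeR adjusted p = 0.00746). It was not called without knockout replicate 1 (0.0751) or 2 (0.0827). Ifngr2, the signalling chain of that receptor, was at 58.1 and 49.5 CPM in the knockout libraries and at 17.8 and 22.4 CPM in WT, a 2.69-fold rise (edgeR adjusted p = 0.0275). Irf4, a transcription factor of lymphocytes and dendritic cells, was at 78.5 and 77.8 CPM in the knockout libraries and at 29.0 and 28.2 CPM in WT, a 2.73-fold rise (edgeR adjusted p = 0.0101). With any 1 library left out, Ifngr2 had an adjusted p of 0.102 to 0.169 and Irf4 of 0.0571 to 0.0916. Irf8, a factor of dendritic cells and B cells, was at 26.04 and 30.89 CPM in the knockout libraries and at 56.8 and 56.2 CPM in the WT libraries, which missed the threshold with edgeR (adjusted p = 0.0512) but passed with DESeq2 (0.00103) and under the 5 CPM filter (0.0253). DESeq2 called 3 genes higher and 3 lower on this list. Pax5, which drives Ciita in B cells, had 0 counts in every library.

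MHC class I genes served as the nearest comparison. Of 9 tested, 0 rose and 1 fell, with a median log2 fold change of -0.17, beside 3.12 for the class II genes. The class II genes were chosen with this contrast known, so nothing is read from that gap. B2m, the class I light chain, was at 798 and 758 CPM in the knockout libraries and at 1013 and 1154 CPM in WT. It fell by 0.48 on the log2 scale (edgeR adjusted p = 0.0483). That call was lost with size-factor scaling (0.0534), total-count scaling (0.0512), no filter (0.0651) and the replicate block (0.163), and without knockout replicate 1 (0.208), knockout replicate 2 (0.276) or WT replicate 2 (0.129), while its log2 fold change lay between -0.58 and -0.38 throughout. Tap2, a subunit of the peptide transporter, was at 555 and 513 CPM in the knockout libraries and at 401 and 365 CPM in the WT libraries. It missed the threshold with edgeR (adjusted p = 0.0565) but passed with DESeq2 (0.000311), total-count scaling (0.0431) and the 5 CPM filter (0.0246). Nlrc5, the class I counterpart of Ciita, was at 90.6 and 92.5 CPM in the knockout libraries and at 105 and 126 CPM in the WT libraries (edgeR adjusted p = 0.273).

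Markers of cells that normally carry class II differed in how far they went with it. Conventional dendritic cell genes summed to 114 and 119 CPM in the knockout libraries and to 13.7 and 15.4 CPM in the WT libraries, and of 8 tested, 4 rose and 0 fell (median log2 fold change 2.67). Cd209a, a lectin receptor, was at 30.9 and 37.0 CPM in the knockout libraries and at 0 and 1.67 CPM in the WT libraries (edgeR adjusted p = 0.00722). Fscn1, an actin-bundling protein of mature dendritic cells, was at 32.96 and 30.41 CPM in the knockout libraries and at 3.41 and 4.90 CPM in the WT libraries (edgeR adjusted p = 0.00807). Sirpa and Clec10a rose 5.26-fold and 15.6-fold (edgeR adjusted p = 0.0275 and 0.0432). Of the 4, Cd209a was not called without knockout replicate 2 (0.0543), with DESeq2 (0.244) or with limma voom (0.104), and the other 3 were not called with any 1 library left out, at 0.0529 to 0.0673 for Fscn1, 0.0902 to 0.144 for Sirpa and 0.0963 to 0.192 for Clec10a. Clec10a was also not called with limma voom (adjusted p = 0.140) or in edgeR with no filter beyond 1 count (0.0582). With the replicate block none of the 4 was called (edgeR adjusted p 0.0663 to 0.139). The log2 fold change of Clec10a, 3.96 over all libraries, became 6.08 when WT replicate 1 was left out and 3.20 when WT replicate 2 was. That of Cd209a, 5.41, became 4.33 when WT replicate 1 was left out. Flt3, a growth factor receptor of dendritic cells, had 166 and 91 counts in the knockout libraries and 0 in both WT libraries, which makes it at least 44.7-fold higher, taking 3 counts in each WT library as the floor, though it was not called (edgeR adjusted p = 0.063), while of 3 markers of the cross-presenting subset, Batf3 and Clec9a were at or under 1.85 CPM in all 4 libraries. The third of these markers, Xcr1, was at 5.44 and 6.98 CPM in the knockout libraries and at 3.63 and 3.46 CPM in the WT libraries (edgeR adjusted p = 0.404). For Itgax, also on the conventional dendritic cell list, the genotypes overlapped. It had 115 and 1 counts in the knockout libraries and 0 and 26 in the WT libraries (edgeR adjusted p = 0.477). The remaining gene of that list, Zbtb46, was at 4.66 and 6.34 CPM in the knockout libraries. In the WT libraries Zbtb46 was at 0.960 and 1.23 CPM, and it was not called (edgeR adjusted p = 0.106).

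Macrophage and monocyte genes summed to 381 and 438 CPM in the knockout libraries and to 53.9 and 71.1 CPM in the WT libraries, mostly Lyz2, and to 56.8 and 52.3 CPM against 24.3 and 23.6 CPM without it. Of 9 tested, 2 rose and 0 fell (median log2 fold change 1.54): Lyz2, which encodes lysozyme, 9.27-fold (edgeR adjusted p = 0.00214; 0.00662 to 0.0249 with 1 library left out) and Csf1r, the colony-stimulating factor receptor, which was at 29.6 and 15.6 CPM in the knockout libraries and at 0.854 and 0 CPM in the WT libraries (edgeR adjusted p = 0.0137). Csf1r was not called without knockout replicate 1 (0.0764), WT replicate 1 (0.0917) or WT replicate 2 (0.129), nor with DESeq2 (0.129) or limma voom (0.195), and its log2 fold change, 5.64 over all libraries, became 5.10 when knockout replicate 1 was left out and 4.72 when WT replicate 2 was. The log2 fold change was above 0 for 6 of the 9 tested, among them Adgre1, which encodes F4/80, at 2.18 and 0.441 CPM in the knockout libraries and 0.0356 and 0 CPM in the WT libraries (edgeR adjusted p = 0.202). Cd68, a lysosomal glycoprotein, was at 6.22 and 8.99 CPM in the knockout libraries and 3.52 and 1.59 CPM in the WT libraries (edgeR adjusted p = 0.180). The complement genes C1qa and C1qb had values below 0, and their knockout and WT libraries overlapped. The 6 genes not tested, Mertk and Fcgr1 among them, had at most 24 counts in any library, and Vsig4 had 0 in all 4.

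Plasmacytoid dendritic cell genes summed to 52.3 and 50.9 CPM in the knockout libraries and to 13.98 and 9.71 CPM in the WT libraries. Most of it was Tcf4, and without Tcf4 they summed to 9.99 and 16.8 CPM against 4.02 and 3.62 CPM. Of 4 tested 1 rose and 0 fell (median log2 fold change 1.62). That was Tcf4, an E protein, 4.71-fold (edgeR adjusted p = 0.0173; 0.0611 to 0.116 with 1 library left out). Siglech was at 4.24 and 9.91 CPM in the knockout libraries and at 0.0711 and 1.27 CPM in the WT libraries. It was called with DESeq2 (adjusted p = 0.0425) but not with edgeR (adjusted p = 0.101). B cell genes summed to 153 and 152 CPM in the knockout libraries and to 145 and 183 CPM in the WT libraries, most of it Ighm. Without Ighm they summed to 50.6 and 35.8 CPM against 15.8 and 23.9 CPM. Of 9 B cell genes tested 0 rose and 0 fell with edgeR, DESeq2 or limma voom, 4 had an unadjusted edgeR p under 0.05, and their median log2 fold change was 1.16. Ms4a1, which encodes CD20, was at 4.90 and 4.77 CPM in the knockout libraries and at 0.960 and 1.95 CPM in the WT libraries (edgeR adjusted p = 0.173). Thymic epithelial genes summed to 35.1 and 26.6 CPM in the knockout libraries and to 56.5 and 59.9 CPM in the WT libraries. Most of it was Ly75, and without Ly75 they summed to 15.04 and 11.72 CPM against 16.86 and 19.90 CPM. None of 7 tested was called with edgeR or limma voom, while DESeq2 called 1 higher (Aire) and 1 lower (Ly75). Of these 7, 2 had an unadjusted edgeR p under 0.05 (median log2 fold change -0.07). Krt14 and Psmb11 had 0 counts in every library. Of the 9 T and iNKT cell identity genes, 0 rose and 1 fell (median log2 fold change -0.08). That was Trac, the T cell receptor α constant region, at 1612 and 1601 CPM in the knockout libraries and at 2292 and 2510 CPM in the WT libraries (edgeR adjusted p = 0.0124; 0.115 without knockout replicate 1 and 0.122 without knockout replicate 2). DESeq2 called 1 of the 9 higher and 3 lower (Cd3d, Cd3g and Trac). The one higher was Zbtb16, which encodes PLZF, the lineage factor of iNKT cells, at 353 and 350 CPM in the knockout libraries and at 255 and 192 CPM in the WT libraries (edgeR adjusted p = 0.0659, 0.0394 without WT replicate 1, and 0.0278 under the 5 CPM filter). The part of any of these cells in the class II values was not tested.

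**Figure D4:**
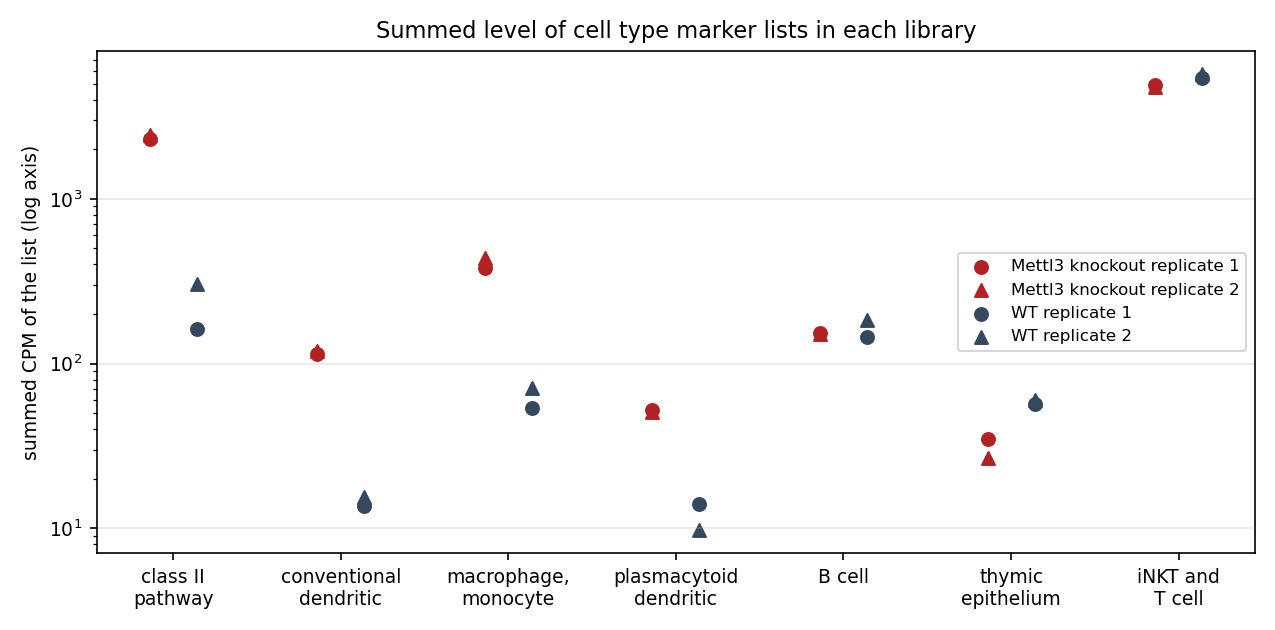
Summed CPM (log axis) of the class II pathway genes and of 6 marker lists in each library, Mettl3 knockout in red and WT in dark blue, replicates 1 and 2 as circles and triangles. The dendritic and macrophage lists lie higher in both knockout libraries, at 50.9 to 438 CPM against 9.71 to 71.1 CPM in WT, and the T cell list lies between 4759 and 5763 CPM in all 4.

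The genes whose profile lay nearest to the mean of H2-Aa, H2-Ab1, H2-Eb1 and Cd74 were ranked by distance between centred log2(CPM + 1) values over the 4 libraries, among 8452 protein-coding candidates that reach a mean of 10 CPM in 1 genotype. In order they were Mgl2 (distance 0.401), Cd209a (0.538), Cd209e (0.565), Serpina3f (0.593), Fcgr2b (0.637), Lyz2 (0.824), Cd209d (0.838) and Ptafr (0.873). Of the class II genes themselves, the 4 that set the mean lay within 0.277 of it, followed by H2-DMb2 (1.13), H2-DMb1 (1.38), Ciita (2.36), H2-Oa (2.80), H2-Ob (2.85) and H2-DMa (3.5). All 8 genes lay nearer to the chains than the H2-DM, H2-O and Ciita genes did. The 8 were picked as the nearest of 8452 candidates and the class II genes were not picked by distance, so nothing is read from that. Mgl2, a galactose-binding lectin, was at 21.0 and 27.8 CPM in the knockout libraries and at 0.427 and 2.15 CPM in the WT libraries. Cd209d and Cd209e, paralogues of Cd209a whose reads may be shared, were between 46.3 and 63.6 CPM in the knockout libraries and between 0.178 and 3.66 CPM in the WT libraries. Serpina3f, a serine protease inhibitor gene, was at 70.4 and 98.4 CPM in the knockout libraries and at 3.98 and 12.1 CPM in the WT libraries. All 8, like the chains, were higher in WT replicate 2 than in WT replicate 1. They were picked for this pattern, so it is a description of these 4 libraries.

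**Figure D5:**
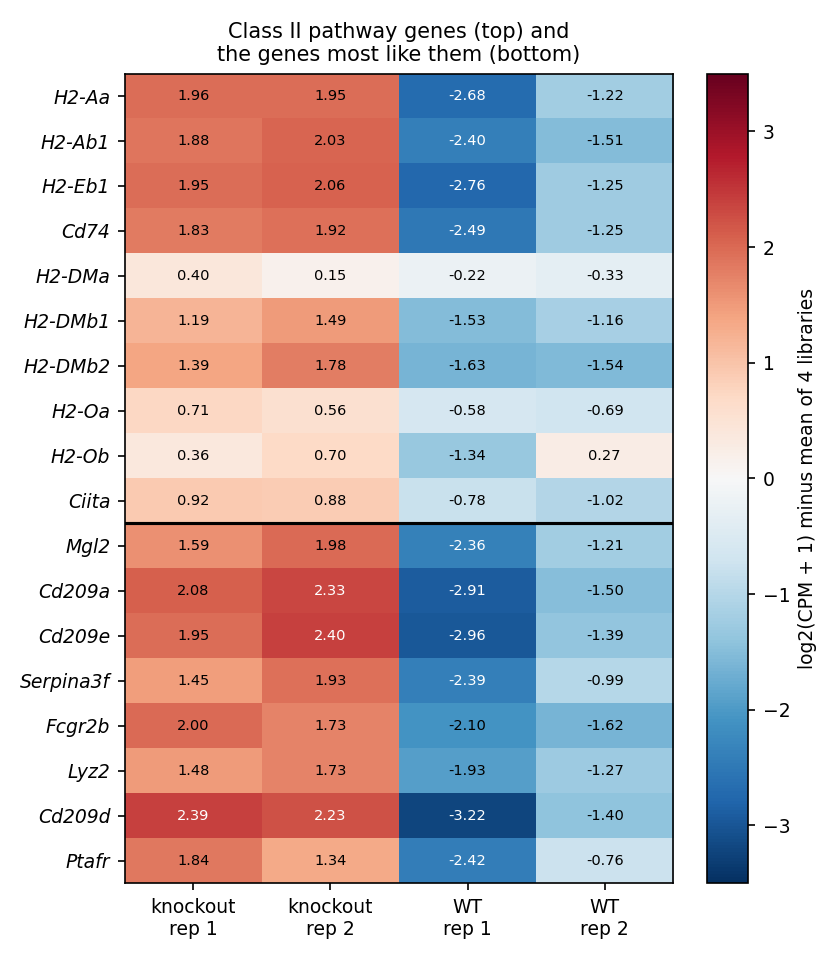
Log2(CPM + 1) minus its mean over 4 libraries, in color and in figures, for the 10 class II pathway genes (above the line) and the 8 genes most like the chains and Cd74 (below it), with knockout columns left of WT columns. The chains and Cd74 run from 1.83 to 2.06 in the knockout and from -2.76 to -1.22 in WT, while H2-DMa stays between -0.33 and 0.40.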

How the data were processed

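The authors deposited raw read counts per gene, with 1 column per library and replicates not pooled. The submitters' processing notes name build mm10, DESeq2 1.18.1, HTSeq 0.6.1, STAR 2.6.0a and FastQC 0.11.5. What each tool did, the annotation and the strand setting are not given. Smart-seq2 was used, per the labels' protocols, and it leaves reads unstranded. Symbols came from GENCODE M21 for 53620 IDs, and 95 had none.

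Counts were analysed in R 4.3.3 with edgeR 4.0.16 (filterByExpr, TMM, quasi-likelihood test, legacy=FALSE, robust=TRUE, no covariate, 2 residual degrees of freedom), a procedure also tested on simulated data. P-values were adjusted over all 14185 genes tested, two-sided, with calls at 0.05. Each SE was taken as the size of the log2 fold change over √F. Alternatives were DESeq2 1.42.0, limma 3.58.1 voom, other scalings and filters, the replicate number as a block, and each library left out. The libraries of a genotype differed beyond counting noise (chi-square per degree of freedom 27.0 in the knockout and 42.5 in WT) and were used as separate replicates. Floors are 3 counts per library and cover counting error only, since reads carry no molecular identifiers.

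The 10 genes and the 11 lists of other genes were chosen with earlier results of these data known. By rule, up to 4 genes with the smallest p were named from each list, with all 7 docking protein genes, the other class II chain genes, any gene under 3 counts in all libraries together, and the 8 genes nearest in profile. Flt3, Clec9a, Xcr1, Itgax, Zbtb46, C1qa, C1qb and Fcgr1 were named outside that rule, after their values were seen. So were genes overlapping or sharing motifs with the 10. H2-DMb1 and H2-DMb2 were compared by transcript because no protein sequence was used.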

Additional observations from a re-analysis of the deposited data

How the results depend on the processing

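All 10 class II genes kept a positive log2 fold change under all 11 alternatives, and their median ran from 2.90 to 3.29 around 3.12. The number of them called was 6. It was 7 when genes had to reach 5 CPM in 2 libraries, 8 with DESeq2, 3 with the replicate block (H2-Ab1, Cd74 and H2-DMb2) and 2 to 5 with 1 library left out. Calls over all genes numbered 368 (154 higher and 214 lower in the knockout). They numbered 727 (335 and 392) under that 5 CPM filter, 1341 (665 and 676) with DESeq2, and 33 (7 and 26) with the replicate block. Calls higher in the knockout numbered 93 with no filter beyond 1 count and 101 with limma voom. With 1 library left out, 41 to 172 were called (13 to 40 higher and 26 to 132 lower). Total-count scaling gave 208 higher and 197 lower. Among the 84 other listed genes 13 were called, 20 at 5 CPM or more, 24 with DESeq2, 1 with the replicate block and 2 to 6 with 1 library left out. Among the 10 genes and the listed genes named by rule, directions turned only for docking protein genes: with 1 library left out the log2 fold change ran from -0.65 to 0.38 for Rfx5, from -0.13 to 0.22 for Rfxank, from -0.50 to 0.088 for Rfxap and from -0.096 to 0.011 for Nfyb, which was also 0.014 with total-count scaling. Replicate numbers were not shown to pair the libraries (correlation of deviations -0.03), and the block leaves 1 residual degree of freedom. The cause of these shifts was not tested.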
